A study of Mus musculus with 18 samples.

Results

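The transcripts described here are those of the Egr zinc finger transcription factors *Egr1*, *Egr2* and *Egr3* and of the Nab co-repressors *Nab1* and *Nab2*, chosen by name as the rows of the array table that carry 1 gene symbol (5 of the 22180 genes with such a row). *Nab2* has 2 rows, and the row with the higher mean was used, with the other given beside it. The samples were thymocytes of mouse fetuses at embryonic day 18.5 on a C57BL/6 background, sorted by FACS into CD69- DP cells (CD4+CD8+CD69-), CD69+ DP cells (CD4+CD8+CD69+) and SP4 cells (CD4+CD8-). Each population came from WT fetuses, from Gli3+/- fetuses carrying 1 mutant allele of the Hedgehog pathway factor *Gli3*, and from Gli3-/- fetuses carrying none that is intact, which gave 9 groups of 2 arrays and 18 arrays in all. The labels number 2 samples per genotype, and the arrays of the 3 populations with the same number carry the same sort label, so that the 6 arrays of a genotype come from 2 numbered samples. The mutation was constitutive, so every cell of the fetus carried it, thymic stroma included. A level below is the normalised intensity of a row on the authors' linear scale, and a difference is a difference of log2 levels.

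Egr proteins are immediate early factors that bind a GC-rich DNA site through zinc fingers. In thymocytes they are induced when the T-cell receptor (TCR) signals through Ras and ERK, and they act in positive selection, the step at which DP cells that recognise self-MHC are kept and go on to mature. Nab1 and Nab2 have no DNA-binding domain of their own. They bind a domain that Egr1, Egr2 and Egr3 share and that Egr4 lacks, and they are known as repressors of Egr-driven transcription. *Nab2* is itself known as an Egr target, so that the family is described as a feedback loop. Work cited by the authors reports Nab2 as a coactivator of the interleukin gene *Il2* in T cells. CD69 is a surface protein that appears on thymocytes after TCR signalling, which is why the CD69- and CD69+ DP cells were sorted apart.

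Promoter windows (250 bases before to 50 after a start site, RefSeq, GRCm38.p6) were at hand for *Egr2* (5 windows), *Nab1* (1) and *Nab2* (1), and not for *Egr1* and *Egr3*. They were searched on both strands for the Egr sites GCGTGGGCG and GCGGGGGCG, the CArG box bound by serum response factor, and the Ets site CCGGAAGT. The *Egr2* window below is shown because the CArG box, in capitals, is the element through which ERK signalling is known to reach *Egr* genes. The *Nab1* window is shown because it holds Egr sites, in capitals.
*Egr2* chr10:67537619-67537918, plus strand: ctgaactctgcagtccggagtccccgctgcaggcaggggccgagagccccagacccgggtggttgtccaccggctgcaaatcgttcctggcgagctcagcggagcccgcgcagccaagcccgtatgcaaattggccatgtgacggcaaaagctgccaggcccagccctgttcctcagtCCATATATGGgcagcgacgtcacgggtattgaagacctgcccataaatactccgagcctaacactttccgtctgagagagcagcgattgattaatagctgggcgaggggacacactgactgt
*Nab1* chr1:52500399-52500698, minus strand: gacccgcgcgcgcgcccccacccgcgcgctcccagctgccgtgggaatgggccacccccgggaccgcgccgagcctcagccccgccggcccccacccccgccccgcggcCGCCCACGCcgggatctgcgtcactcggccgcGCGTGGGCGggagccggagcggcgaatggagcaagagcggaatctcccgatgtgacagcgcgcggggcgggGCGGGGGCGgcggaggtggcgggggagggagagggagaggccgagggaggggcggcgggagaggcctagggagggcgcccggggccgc
The CArG box of *Egr2* spans bases 72 to 63 before the start site of this window and lies in 3 of the 5 windows. The window of an upstream start holds another box, also 72 to 63 bases before its own start. The share of all 32851 windows of this length that hold a CArG box was 1.63%. The *Nab1* window holds GCGTGGGCG at 141 to 133 bases before the start on the opposite strand and at 109 to 101 bases before it on the sense strand, and GCGGGGGCG at 38 to 30 bases before it. No 2 of these sites overlap. The shares over all windows were 0.612% for GCGTGGGCG, 2.91% for GCGGGGGCG and 3.89% for the Ets site. The *Nab2* window holds none of these letters, and the Ets site was in no window of the 3 genes.

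The labels of the populations were checked against their sort markers. *Cd69* lay between 92.0 and 220 on the 6 CD69- DP arrays and between 675 and 1416 on the 6 CD69+ DP arrays. *Cd8a*, which codes for a chain of CD8, lay between 2951 and 4483 on the 12 DP arrays and between 1120 and 2689 on the 6 SP4 arrays, so it was lower in SP4 cells but not at background. *Gli3* itself was dim on every array (27.6 to 37.1, against 67.0 for the median gene) and overlapped between genotypes, so its level cannot check the genotype labels. The Y-linked gene *Eif2s3y* lay between 229 and 696 on the 12 WT and Gli3+/- arrays and between 15.1 and 22.5 on the 6 Gli3-/- arrays. *Xist*, which is transcribed from the inactive X chromosome of female cells, lay between 39.7 and 52.4 on the WT arrays of replicate 1, between 2726 and 2946 on those of replicate 2, between 2977 and 3330 on Gli3+/- arrays and between 3627 and 4850 on Gli3-/- arrays. Fetal sex was therefore not balanced over the genotypes or over the WT replicates, and its part in the genotype differences cannot be told apart from that of *Gli3*. In SP4 cells the summed level of 8 neutrophil markers was 504 to 1396, against 332 to 746 on the DP arrays, with *S100a8* and *S100a9* rising most. The sources do not say whether the numbered samples were single fetuses or pools. The WT arrays of replicate 2 and all Gli3+/- arrays read both *Eif2s3y* (229 to 489) and *Xist* (2726 to 3330). Whether these samples held cells of both sexes was not tested.

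*Egr1* and *Egr2* were low in CD69- DP cells, highest in CD69+ DP cells and intermediate in SP4 cells. In WT CD69- DP cells *Egr1* read 91.1 and 83.8 on replicates 1 and 2, in WT CD69+ DP cells 521 and 375, and in WT SP4 cells 305 and 290. In Gli3+/- cells it read 72.5 and 87.5 in CD69- DP, 341 and 291 in CD69+ DP and 224 and 171 in SP4. In Gli3-/- cells it read 80.9 and 62.6 in CD69- DP, 305 and 300 in CD69+ DP and 152 and 247 in SP4. All 6 CD69+ DP arrays and all 6 SP4 arrays therefore lay above all 6 CD69- DP arrays, and the CD69+ DP and SP4 ranges overlapped. When the 9 groups were put in order of their mean, WT CD69+ DP stood first and apart from Gli3+/- CD69+ DP. That group, Gli3-/- CD69+ DP and WT SP4 followed, each overlapping the next. Gli3+/- SP4 and Gli3-/- SP4 came below WT SP4 without overlap and overlapped each other, and the 3 CD69- DP groups came last.

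*Egr2* had the same order of populations in each genotype. In WT cells it read 128 and 138 in CD69- DP, 813 and 505 in CD69+ DP and 412 and 352 in SP4. In Gli3+/- cells the readings were 159 and 172, then 476 and 391, then 327 and 222. In Gli3-/- cells they were 137 and 138, then 454 and 367, then 260 and 283. Both WT CD69+ DP arrays exceeded every other array for *Egr2*, and replicate 1 of that group stood well above replicate 2. The lowest SP4 array lay above the highest CD69- DP array. Gli3+/- CD69- DP cells had more *Egr2* than the other CD69- DP groups on both arrays.

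*Egr3* moved within a narrower range. WT cells read 88.8 and 119 in CD69- DP, 199 and 156 in CD69+ DP and 188 and 139 in SP4. Gli3+/- cells read 92.2 and 125, then 140 and 134, then 157 and 112. Gli3-/- cells read 80.7 and 108, then 146 and 150, then 111 and 120. The CD69- DP and CD69+ DP arrays did not overlap (highest 125, lowest 134), whereas the SP4 arrays overlapped both. In CD69- DP cells replicate 2 was above replicate 1 in all 3 genotypes. *Egr4*, the family member that Nab proteins do not bind, was dim on all 18 arrays (39.3 to 60.8) and passed the test in no comparison.

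**Figure D1:**
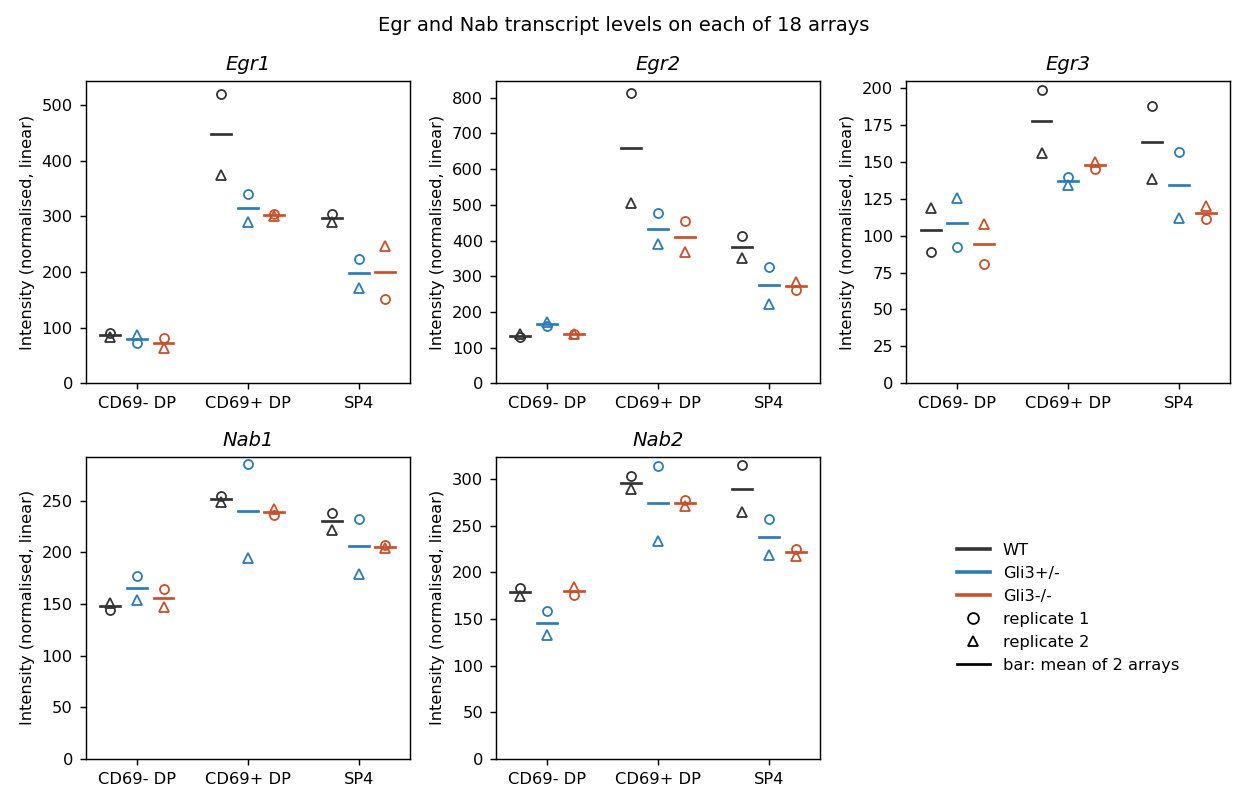
Normalised linear intensity of *Egr1*, *Egr2*, *Egr3*, *Nab1* and *Nab2* on each of 18 arrays, by population and genotype, with circles for replicate 1, triangles for replicate 2 and bars for the mean of 2 arrays. For each gene all 6 CD69+ DP arrays sit above all 6 CD69- DP arrays, and for *Egr2* the WT CD69+ DP arrays (813 and 505) sit above every other array.

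The co-repressors *Nab1* and *Nab2* were lowest in CD69- DP cells in each genotype. *Nab1* read 145 and 151 in WT CD69- DP cells, 255 and 248 in WT CD69+ DP cells and 238 and 222 in WT SP4 cells. Its Gli3+/- values were 177 and 154, then 286 and 194, then 233 and 179, and its Gli3-/- values were 165 and 147, then 237 and 242, then 207 and 204. The lowest CD69+ DP or SP4 array (179) lay above the highest CD69- DP array (177), so the margin was small. The former was replicate 2 of Gli3+/- SP4 cells and the latter replicate 1 of Gli3+/- CD69- DP cells.

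*Nab2* read 183 and 175 in WT CD69- DP cells, 303 and 289 in WT CD69+ DP cells and 315 and 265 in WT SP4 cells. Its Gli3+/- values were 159 and 133, then 314 and 234, then 257 and 219, and its Gli3-/- values were 176 and 185, then 277 and 271, then 225 and 217. CD69- DP arrays again lay below all others. The other *Nab2* row gave a larger change for the same samples, with group geometric means of 104 in WT CD69- DP, 402 in WT CD69+ DP and 343 in WT SP4 cells, where the row used gave 179, 296 and 289. Both rows had the same order of populations for the averages over genotypes, and they disagreed in the size of the change, so the fold changes of *Nab2* below hold for the row used.

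The first population comparison asked how the 5 transcripts changed as DP cells became CD69+. Averaged over the 3 genotypes (6 arrays against 6, both sorted from the same 6 numbered samples), all 5 rose, with 7.79% of all genes passing in either direction at an adjusted p under 0.05 (limma with Benjamini-Hochberg adjustment over the 22180 genes, used throughout). *Egr1* rose 4.40-fold, a log2 difference of 2.14 ± 0.13 (SE, adjusted p = 7.9e-07). *Egr2* rose 3.34-fold, by 1.74 ± 0.12 (adjusted p = 3.3e-06). *Egr3* rose 1.51-fold, by 0.60 ± 0.13 (adjusted p = 0.0105), and on replicate 2 arrays alone it stood at 0.32 (adjusted p = 0.146). *Nab1* rose 1.55-fold, by 0.63 ± 0.10 (adjusted p = 0.00137), and *Nab2* rose 1.67-fold, by 0.74 ± 0.09 (adjusted p = 0.000227). The median over the 5 was 0.74, and that over all genes was 0.01. For all 5 the arrays of the populations did not overlap, which held in that direction for 2.61% of genes. In a fit to all rows of the table, where 3.49% of rows passed, the row of *Nab2* not used above rose by 1.77 ± 0.13 (adjusted p = 6.3e-05).

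In the second comparison, SP4 against CD69+ DP, *Egr1* fell by 0.63 ± 0.13 (adjusted p = 0.00987) and *Egr2* fell by 0.67 ± 0.12 (adjusted p = 0.00584), with 6.15% of all genes passing. *Egr3* (-0.18 ± 0.13), *Nab1* (-0.19 ± 0.10) and *Nab2* (-0.18 ± 0.09) did not pass, whether they differed from *Egr1* and *Egr2* was not tested, and their 95% intervals ran from -0.45 to 0.10, from -0.39 to 0.02 and from -0.36 to 0.00. The other *Nab2* row stood at -0.37 ± 0.13 and did not pass either among all rows (2.89% passing). For none of the 5 did the SP4 and CD69+ DP arrays separate, as they did downwards for 1.38% of genes. On replicate 2 arrays alone neither fall passed, at -0.47 for *Egr1* (adjusted p = 0.132) and -0.57 for *Egr2* (adjusted p = 0.0652).

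SP4 cells thus remained above CD69- DP cells for 4 of the 5 at the threshold, against 9.78% of all genes passing. *Egr1* was 2.84-fold higher in SP4 (adjusted p = 9.0e-06), *Egr2* 2.09-fold (adjusted p = 0.000102), *Nab1* 1.37-fold (adjusted p = 0.00768) and *Nab2* 1.48-fold (adjusted p = 0.00073). The other *Nab2* row was higher by a log2 difference of 1.40 ± 0.13 in the fit to all rows, where 5.2% of rows passed (adjusted p = 0.000114 from limma). *Egr3* was 1.34-fold higher with an adjusted p of 0.0535, and with the replicate number as a block, where 14.1% of genes passed, its adjusted p was 0.0354. Its difference was 0.77 on replicate 1 arrays and 0.07 on replicate 2 arrays. The share of the first rise that SP4 cells kept was taken on the linear scale, from the geometric mean of each population. It was 54.1% for *Egr1*, 46.8% for *Egr2*, 65.9% for *Egr3*, 66.1% for *Nab1* and 70.9% for *Nab2*. The SP4 arrays lay wholly above the CD69- DP arrays for all but *Egr3*, as they did for 4.13% of genes. The markers of neutrophils and of dendritic cells rose in the same SP4 arrays (4 of 8 and 4 of 6 measured genes against CD69+ DP), and their part in the SP4 levels was not tested. In sorted bulk samples, fewer cells expressing a gene and less RNA per cell cannot be told apart.

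**Figure D2:**
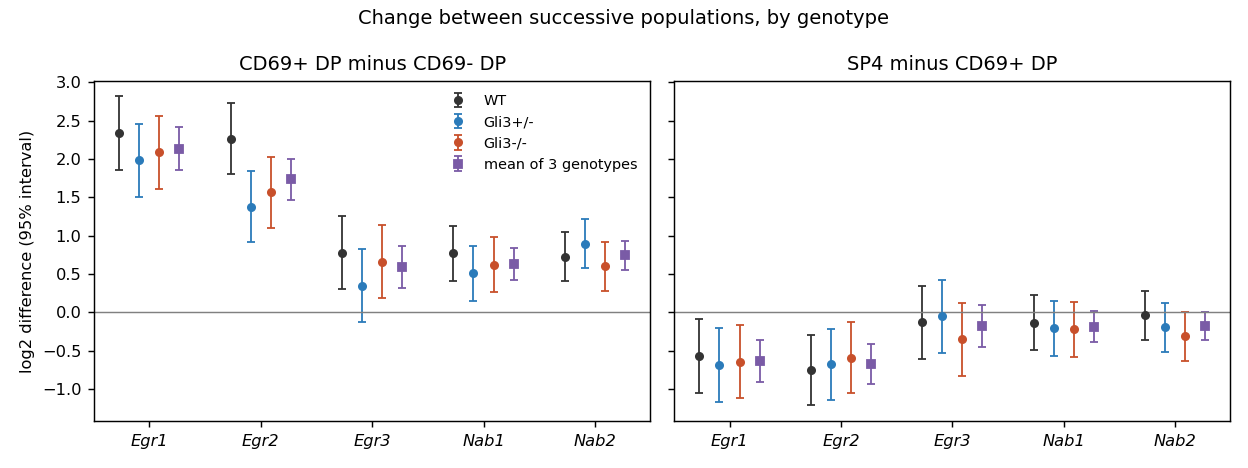
Change in log2 level from CD69- DP to CD69+ DP (left) and from CD69+ DP to SP4 (right) for each gene, in each genotype and averaged over the 3 genotypes, with 95% intervals from limma. Among the rows shown, *Egr1* and *Egr2* rise most (2.14 and 1.74 on average) and fall next (-0.63 and -0.67). The intervals of the other genes in the right panel reach 0 or beyond. The *Nab2* row not shown rose by 1.77 at the first step.

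Within single genotypes, with 2 arrays against 2, the rise of *Egr1* and *Egr2* passed the test in each. *Egr1* rose by 2.34 ± 0.22 in WT, by 1.98 ± 0.22 in Gli3+/- and by 2.09 ± 0.22 in Gli3-/- cells. *Egr2* rose by 2.27 ± 0.21 in WT, by 1.38 ± 0.21 in Gli3+/- and by 1.57 ± 0.21 in Gli3-/- cells. In WT, 3 of the 5 passed (*Egr1*, *Egr2* and *Nab2*) with 0.681% of all genes passing. The call of *Nab2* in WT was lost with all rows tested (adjusted p = 0.126), with a variance trend (0.0609), with the compared arrays only (0.0624) and without each of the 4 arrays in turn (0.0889 to 0.344). In Gli3+/- the same 3 passed, with 0.189% of genes, and in Gli3-/- *Egr1* and *Egr2* passed, with 0.289% of genes. With the compared arrays only, none of the 3 passed in Gli3+/- cells (adjusted p = 0.125 for *Egr1*, 0.236 for *Egr2* and 0.526 for *Nab2*). With 1 array left out, *Egr1* was lost in Gli3+/- cells without CD69- DP replicate 1, *Egr2* and *Nab2* were lost there without any of CD69- DP replicates 1 and 2 and CD69+ DP replicate 1, and *Egr2* was lost in Gli3-/- cells without any of the same 3 arrays. With the replicate number as a block, *Nab1* passed too in WT (0.77 ± 0.17, adjusted p = 0.0546 without the block and 0.00697 with it, 3.74% of genes passing with it), and so did *Nab1* and *Nab2* in Gli3-/- cells (adjusted p = 0.0309 and 0.0196, 2.95% of genes passing). *Egr3* passed in no single genotype, at 0.78 ± 0.22 in WT, 0.35 ± 0.22 in Gli3+/- and 0.66 ± 0.22 in Gli3-/- cells.

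From CD69+ DP to SP4, 0 of the 5 passed within any single genotype, where 0.618% of genes passed in WT, 0.0721% in Gli3+/- and 0.194% in Gli3-/- cells. At an unadjusted p under 0.05, *Egr1* and *Egr2* were lower in each genotype, against 4.59% of genes in WT, 2.61% in Gli3+/- and 6.47% in Gli3-/- cells. The *Egr1* difference was -0.57 for WT, -0.68 for Gli3+/- and -0.64 for Gli3-/- cells, and the *Egr2* difference was -0.75, -0.68 and -0.59. Single arrays moved these values. Without WT CD69+ DP replicate 1 they were -0.33 for *Egr1* and -0.41 for *Egr2* in WT, without Gli3+/- SP4 replicate 2 *Egr2* stood at -0.40 in Gli3+/-, and without Gli3-/- SP4 replicate 1 *Egr1* stood at -0.29 in Gli3-/- cells (-0.99 without replicate 2). In WT the fall of *Egr2* passed with the replicate block (adjusted p = 0.154 without it and 0.039 with it, 3.15% of genes passing with it). The differences of *Egr3*, *Nab1* and *Nab2* ran from -0.35 (*Egr3*, Gli3-/-) to -0.04 (*Nab2*, WT).

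The genotype comparisons asked whether loss of *Gli3* changed the 5 transcripts in each population. None of the 5 passed the adjusted threshold in any of them, with or without the replicate block, and very few genes did. The share of genes passing was 0.0135% for Gli3-/- minus WT in CD69- DP and in SP4, 0.00902% in CD69+ DP and 0.0135% over the average of the populations. It was 0.0% for Gli3+/- minus WT in each population and 0.00451% for Gli3-/- minus Gli3+/- in each. Both mutant groups were set against the same 2 WT arrays of a population, so their differences from WT are not independent.

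In CD69+ DP cells all 5 transcripts were lower on both Gli3-/- arrays than on both WT arrays, a separation that 14.6% of genes showed in that direction. *Egr2* was 1.57-fold lower, a log2 difference of -0.65 ± 0.21 (95% interval -1.11 to -0.19, adjusted p = 0.9999 from limma). *Egr1* was 1.46-fold lower, at -0.55 ± 0.22 (interval -1.03 to -0.07). *Egr3*, *Nab1* and *Nab2* stood at -0.26 ± 0.22, -0.07 ± 0.17 and -0.11 ± 0.15, and the other *Nab2* row stood at -0.34 ± 0.22. At an unadjusted p under 0.05, 2 of the 5 were thus lower, against 1.36% of genes. WT replicate 1 was the highest array for *Egr1*, *Egr2* and *Egr3*, and without it the differences became -0.31 for *Egr1* and -0.31 for *Egr2* and -0.08 for *Egr3*. Without WT replicate 2 they became -0.78 for *Egr1* and -0.99 for *Egr2*.

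Gli3+/- CD69+ DP cells gave similar readings, with *Egr1* at -0.49 ± 0.22 and *Egr2* at -0.57 ± 0.21 against WT. These were the 2 of 5 that were lower at an unadjusted p under 0.05, against 1.34% of genes. *Egr1*, *Egr2* and *Egr3* were lower on both Gli3+/- arrays than on both WT arrays, as were 12.9% of genes. Without WT replicate 1 the *Egr1* difference was -0.25 and the *Egr2* difference was -0.23, and without WT replicate 2 they were -0.73 and -0.91. *Nab1* (-0.10 ± 0.17) and *Nab2* (-0.13 ± 0.15) overlapped between Gli3+/- and WT. Between Gli3-/- and Gli3+/- cells of this population the differences of the 5 ran from -0.08 (*Egr2*) to 0.11 (*Egr3*). At an unadjusted p under 0.05, 0 of the 5 differed, against 2.18% of genes in either direction.

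In SP4 cells all 5 were again lower on both Gli3-/- arrays than on both WT arrays, as were 17.9% of genes. *Egr1* was 1.53-fold lower, at -0.62 ± 0.22 (interval -1.10 to -0.14, adjusted p = 0.952 from limma). *Egr2* stood at -0.49 ± 0.21, *Egr3* at -0.48 ± 0.22 and *Nab2* at -0.38 ± 0.15, each with an adjusted p of 0.960. That made 4 of 5 lower at an unadjusted p under 0.05, against 2.97% of genes. *Nab1* stood at -0.16 ± 0.17. Gli3-/- replicate 1 held the lowest *Egr1* reading in SP4, and without it the *Egr1* difference was -0.27. Without Gli3-/- replicate 2 it was -0.97, and without WT replicate 1 the *Egr3* difference was -0.26. The other *Nab2* row stood at -0.57 ± 0.22.

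Gli3+/- SP4 cells had *Egr1* at -0.60 ± 0.22 and *Egr2* at -0.50 ± 0.21 against WT, and these 2 of 5 were lower at an unadjusted p under 0.05, against 2.13% of genes. Without Gli3+/- replicate 2 the *Egr2* difference was -0.22, and without Gli3+/- replicate 1 it was -0.78. *Egr1*, *Egr2* and *Nab2* were lower on both Gli3+/- arrays than on both WT arrays, as were 16.3% of genes. Other measurements differed in the same SP4 arrays. *Cd8a* gave 1120 and 1938 for WT arrays, 2245 and 2390 for Gli3+/- arrays and 2689 and 2064 for Gli3-/- arrays. *Rag2*, a recombinase gene of DP cells, gave 475 and 978, then 840 and 1377, then 1184 and 1023 for these genotypes. Both genes were higher on both Gli3-/- arrays than on both WT arrays. The summed neutrophil markers were 1138 to 1267 in WT and 504 to 1067 in Gli3-/- SP4 cells, with *S100a8* at 552 and 523 in WT and at 126 and 495 in Gli3-/- cells. Whether these differences had a part in the lower *Egr* readings of SP4 cells was not tested.

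In CD69- DP cells the genotype differences went in both directions. *Egr2* (159 and 172 against 128 and 138) and *Nab1* (177 and 154 against 145 and 151) were higher on both Gli3+/- arrays than on both WT arrays. Their log2 differences were 0.32 and 0.16, and the share of all genes that separated upwards was not counted. Only *Egr1* was lower on both Gli3-/- arrays than on both WT arrays (14.6% of genes), at -0.30 ± 0.22, and only *Nab2* was so in Gli3+/- cells (13.4% of genes), at -0.30 ± 0.15. At an unadjusted p under 0.05, 0 of the 5 were lower in Gli3-/- cells, against 0.748% of genes. In Gli3+/- cells 0 of the 5 differed in either direction, against 1.77% of genes. *Egr2*, *Nab1*, *Nab2* and *Egr3* stood at 0.05 ± 0.21, 0.07 ± 0.17, 0.01 ± 0.15 and -0.14 ± 0.22 in Gli3-/- cells against WT. For the other *Nab2* row the value was 0.12 ± 0.22.

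Averaged over the 3 populations (6 arrays against 6, from 2 numbered samples against 2, so that the arrays of a genotype are not independent and the SE may be too small), Gli3-/- cells had *Egr1* at -0.49 ± 0.13, *Egr2* at -0.36 ± 0.12 and *Egr3* at -0.29 ± 0.13 against WT. Their adjusted p-values were 0.9995, and these 3 of 5 were lower at an unadjusted p under 0.05, against 2.1% of genes. *Nab1* stood at -0.05 ± 0.10 and *Nab2* at -0.16 ± 0.09. The difference of the Gli3-/- effect between CD69+ DP and CD69- DP cells was -0.70 ± 0.30 for *Egr2* and did not pass for any of the 5, with 0.0% of genes passing. Without WT CD69+ DP replicate 1 it was -0.35. Between SP4 and CD69+ DP cells the differences of that effect ran from -0.27 (*Nab2*) to 0.16 (*Egr2*), and again 0 of the 5 and 0.0% of genes passed.

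**Figure D3:**
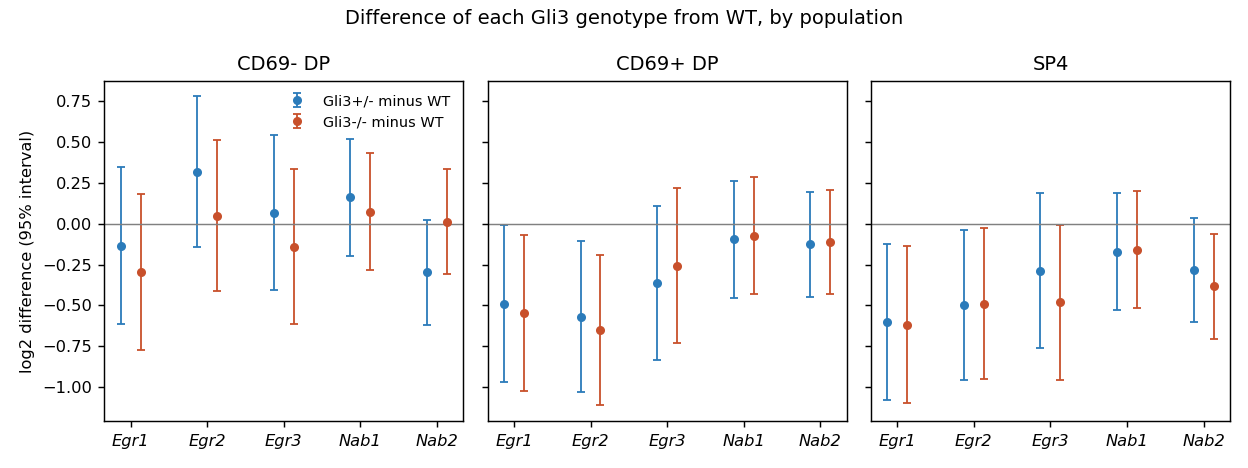
Log2 difference of Gli3+/- (blue) and Gli3-/- (orange) from WT for each gene and population, with 95% intervals before adjustment over genes. *Egr1* and *Egr2* intervals lie below 0 in CD69+ DP and SP4 cells for both genotypes, all *Nab1* intervals cross 0, and no gene passes the adjusted test.

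Genes around the Egr loop were taken from named lists. Over all genes, 3.06% rose and 4.73% fell from CD69- DP to CD69+ DP. From CD69+ DP to SP4, 4.41% rose and 1.74% fell. Of 16 TCR-induced genes, 12 rose and 0 fell from CD69- DP to CD69+ DP (median 0.81), and 4 fell and 0 rose from CD69+ DP to SP4 (median -0.25). Among the first were *Itm2a* (2.92 ± 0.29), *Cd69* itself (2.78 ± 0.25), the orphan receptor gene *Nr4a1* (2.38 ± 0.12) and *Nr4a3* (2.34 ± 0.22). CD69 was the marker by which the DP cells were sorted apart, so the rise of *Cd69* followed from the sort. *Cd5*, which codes for an inhibitory receptor whose level follows TCR signal strength, fell most at the second step (-1.001 ± 0.11), with *Tox* (-0.69 ± 0.12) and *Nr4a1* (-0.62 ± 0.13). *Cd5*, *Tox* and *Nr4a1* thus rose and then fell, as *Egr1* and *Egr2* did. In SP4 cells of Gli3-/- against WT fetuses 0 of the 16 passed, with a median of -0.30 where all genes had -0.02. *Nr4a1* stood at -0.58 ± 0.22 there.

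Of 12 measured genes that carry the signal to *Egr* transcription (Ras exchange factors, MEK kinases, serum response factor and its partners), 1 passed at the first step and 1 at the second, and with the replicate block the counts were 1 and 3. The gene at both steps was *Rasgrp1*, the Ras exchange factor needed for positive selection, which rose by 0.42 ± 0.08 at the first (adjusted p = 0.00541) and fell by 0.53 ± 0.08 at the second step (adjusted p = 0.00169). *Srf*, which codes for the factor that binds the CArG box shown above, stood at 0.27 ± 0.12 and 0.28 ± 0.12 at the successive steps and did not pass (adjusted p = 0.239 and 0.223). Of 13 genes of the NuRD complex, through which Nab2 is known to repress, 0 passed at the first step and 1 at the second, *Chd3*, at 0.63 ± 0.17 (adjusted p = 0.0442), with 2 passing there under the replicate block.

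Of 15 measured genes known in T cells as responsive to Egr factors, 5 rose and 1 fell at the first step (median 0.16). *Bcl2*, a survival gene, rose by 2.01 ± 0.21 (adjusted p = 9.5e-05). *Id3*, which codes for an inhibitor of E proteins and is an Egr target in positive selection, rose by 0.95 ± 0.26 (adjusted p = 0.0412), and *Ndrg1* rose by 0.56 ± 0.12. *Socs3* fell by 0.42 ± 0.11 (adjusted p = 0.031). At the second step 4 rose and 2 fell (median 0.19), and the direction was not that of *Egr1* and *Egr2* for each of them. *Bcl2* rose further, by 0.87 ± 0.21, and *Zbtb16* rose by 0.55 ± 0.08, while the diacylglycerol kinase genes *Dgka* and *Dgkz*, which damp Ras signalling, fell by 0.63 ± 0.10 and 0.43 ± 0.08. *Id3* stood at -0.47 ± 0.26 and did not pass (adjusted p = 0.356). Of these 15 genes 0 passed in any Gli3-/- comparison with WT.

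The arrays numbered 2 differed from those numbered 1 over the 9 groups, with 11.6% of all genes passing. Immediate early genes that respond to cell handling moved strongly, 14 of 19 rising and 0 falling in replicate 2 (median 0.75). *Jun* was 2.59 ± 0.14 and *Fos* 2.29 ± 0.18 higher in replicate 2. The Egr genes are immediate early genes as well, and 0 of the 5 transcripts passed this comparison, with *Egr2*, *Nab1* and *Nab2* lower at an unadjusted p under 0.05, against 10.6% of genes. *Egr1* stood at -0.08 ± 0.10, *Egr2* at -0.19 ± 0.09, *Egr3* at 0.01 ± 0.10, *Nab1* at -0.15 ± 0.07 and *Nab2* at -0.15 ± 0.06, with adjusted p-values from 0.135 to 0.969. These averages cover 1 array against 1 in each group, and whether the shifts differed between populations was not tested. The shifts of *Egr3* and *Egr2* are given here for WT, Gli3+/- and Gli3-/- cells in turn. *Egr3* stood at 0.42, 0.44 and 0.42 in CD69- DP, at -0.35, -0.06 and 0.04 in CD69+ DP and at -0.44, -0.49 and 0.11 in SP4 cells. *Egr2* stood at 0.11, 0.11 and 0.0044 in CD69- DP, at -0.69, -0.29 and -0.31 in CD69+ DP and at -0.23, -0.56 and 0.12 in SP4 cells.

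**Figure D4:**
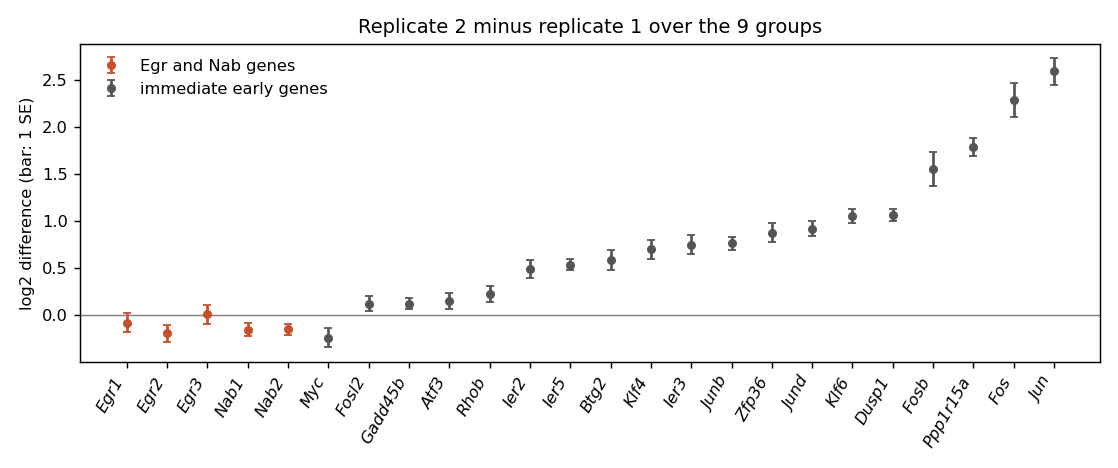
Log2 difference of replicate 2 from replicate 1 over the 9 groups for the 5 Egr and Nab genes (orange) and 19 immediate early genes (grey), with bars of 1 SE. The Egr and Nab genes lie between -0.19 and 0.01, and *Jun* and *Fos* lie at 2.59 and 2.29.

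The transcripts whose pattern was most like each member were sought among 767 genes that were as bright as the median gene or brighter and whose group means span at least 1 log2 unit. The 5 members themselves were left out of these candidates, as were predicted genes, small RNAs, receptor gene segments and sex-linked markers. The measure was Pearson's r over the 9 group means, given as a description, since the points share their arrays. *Septin11* (r = 0.996), *Sh3bp2* (0.991), an adaptor of immune receptors, and *Cd2* (0.987), an adhesion receptor of T cells, were nearest to *Egr1*. *Arhgap20* (0.985), *Raph1* (0.981) and *Septin11* (0.979) were nearest to *Egr2*. *Arhgap20* (0.978), *Lysmd2* (0.951) and *Septin11* (0.940) were nearest to *Egr3*. For *Nab1* they were *Itih5* (0.995), *Nr4a1* (0.992) and *Ndfip1* (0.992), an adaptor of Itch-type ubiquitin ligases, and for *Nab2* they were *Cd2* (0.966), the kinase gene *Stk17b* (0.964) and *Sh3bp2* (0.964). The group means of *Sh3bp2* show the shared shape, at 106 in WT CD69- DP, 512 in WT CD69+ DP and 302 in WT SP4 cells. In the same populations of Gli3-/- fetuses they were 96.5, 395 and 220. Between members, r over the 9 group means ran from 0.891 (*Egr3* with *Nab2*) to 0.983 (*Egr1* with *Egr2*).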

How the data were processed

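The authors deposited intensity values from Affymetrix GeneChip Mouse Gene 2.0ST arrays, normalised by RMA in the oligo package (versions not given in the sources used here). The values had been planned for as log2, but array medians of 59.3 to 65.8 and maxima up to 14834 showed a linear scale, and log2 was taken here. Columns of no listed sample numbered 0. Symbols came from the platform annotation, 1 row a gene (the row with the highest mean, 22180 genes, from 23521 rows with 1 symbol). A mean for each of 9 groups was fitted with limma 3.58.1 in R 4.3.3 (9 residual and 4.734 prior degrees of freedom), and genes were called at a Benjamini-Hochberg adjusted p under 0.05. The code was tested on simulated data.

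Deviations from the group means correlated at 0.114 to 0.686 in all 36 pairs of groups. The replicate number was therefore fitted as a block in an alternative. The tests given are from the fit without this block, so their SEs and p-values leave the replicate number out. The blocked value is printed where it changes a call of the 5 members. Array numbers, 2 a group, limit the precision. The p-values rest on a spread pooled over the 18 arrays of the 9 groups as if independent, although the arrays came from 6 numbered samples. The members and lists were chosen with earlier results of these data known. Genes named in the text were the 5 members, *Egr4*, up to 4 of each list by size of change, and the 3 genes most like each member. *Dgkz* and the check genes *Gli3*, *Cd8a*, *Rag2*, *Eif2s3y*, *S100a8* and *S100a9* were named after their values were seen or as checks. Alternatives were the replicate or sort-label block, quantile and cyclic loess scaling, filters, variance trend, fewer arrays, all rows and left-out arrays. The blocked leave-outs were added after seeing the data.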

Additional observations from a re-analysis of the deposited data

How the results depend on the processing

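Of 1622 alternative values for 72 differences of single genes, 1511 kept their direction and their side of the threshold. The replicate block changed, for the 5 transcripts, the calls given beside the results above and no other. On replicate 2 arrays alone the SP4 minus CD69+ DP count fell from 2 to 0 of 5. For SP4 minus CD69+ DP in WT the count was 1 with the replicate block, 1 with the block and without WT CD69+ DP replicate 2, and 2 at an unadjusted p under 0.05, against 0. For the first rise in WT it was 5 at an unadjusted p, a threshold that 10.4% of genes met in either direction in WT and 10.3% in Gli3-/- cells. In Gli3+/- cells the count for that rise was 1 with all rows tested, 0 with the compared arrays only, 1 with the block and without CD69+ DP replicate 1, and 0 to 3 with 1 array left out. In Gli3-/- cells it was 4 with the replicate block, 5 at an unadjusted p, and 1 to 2 with 1 array left out. For the Gli3+/- alternatives of the first rise, shares over all genes are not given. At an unadjusted p the second step had 2 in Gli3+/- and 2 in Gli3-/- cells, beside the shares given above. Gli3-/- minus WT then had 2 in CD69+ DP, 4 in SP4 and 3 on average over populations. Gli3+/- minus WT had 2 in CD69+ DP and 2 in SP4, and replicate 2 minus replicate 1 had 3. The difference between CD69+ and CD69- DP effects had 1, where 2.06% of genes met that threshold in either direction.

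Signs turned only among differences that had not passed. With 1 array left out, Gli3-/- minus WT in CD69- DP cells ran from -0.0054 to 0.10 for *Egr2*, -0.35 to 0.070 for *Egr3*, -0.0073 to 0.16 for *Nab1* and -0.021 to 0.048 for *Nab2*. Gli3+/- minus WT in CD69+ DP cells ran from -0.37 to 0.18 for *Nab1* and -0.34 to 0.087 for *Nab2*, and in SP4 cells from -0.36 to 0.017 for *Nab1*. Replicate 2 minus replicate 1 ran from -0.044 to 0.073 for *Egr3*. With the replicate block as well, leaving out a CD69- DP array gave -0.12 and -0.063 for *Egr2*, 0.091 and 0.088 for *Egr3*, -0.045 for *Nab1*, and -0.034 and -0.11 for *Nab2* in Gli3-/- minus WT. Leaving out a CD69+ DP array gave 0.031 for *Nab1* in Gli3-/- cells, and 0.13 for *Nab1* and 0.032 for *Nab2* in Gli3+/- cells. The cause was not tested. With 2 arrays a group, a lone array left in a group is assumed to vary like the others, and differences of the size seen between genotypes lie near what these arrays can resolve.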
